A study of Mus musculus with 4 samples.

Results

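The 10 genes studied here coat lipid droplets, make or break down triglyceride, or bring fatty acids into cells, and were followed in fetal pancreas with and without Cyp11a1. They are Hsd17b13, Plin1, Plin2, Plin3, Dgat1, Dgat2, Pnpla2, Lipe, Lpl and Cd36. A probe belonged to them if it was no control spot and its RefSeq transcript, as the array design names it, was a transcript of one of these genes, which gave 16 probes for 10 of the 17305 genes named on the array. All 10 had at least 1 probe that could be tested, among 15531 genes tested. The knockout extracts were pancreas RNA of Cyp11a1 knockout mouse embryos at E18.5, late in gestation, and the wild-type extracts were pancreas RNA of wild-type embryos of the same stage and of the same strain, C57BL/6JNarl. Each of 4 arrays held 1 knockout extract in red (Alexa 647) and 1 wild-type extract in green (Alexa 555), and no array had the dyes exchanged, so genotype and dye cannot be told apart for any gene. The labels call the arrays biological replicates, and how many embryos went into an extract was not stated in them. The 10 genes were picked by function when the knockout over wild-type ratios of these arrays were already known, so their ratios, p-values and counts are a description of these arrays and no independent evidence.

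Cells store surplus fatty acids as triglyceride in lipid droplets, which bud from the endoplasmic reticulum and carry a coat of perilipins and other proteins. Acyltransferases build the triglyceride step by step, with the DGAT enzymes adding the last fatty acid, and lipases on the droplet surface release fatty acids again when they are needed. Most cells hold few droplets, adipocytes hold 1 large droplet each, and steroid-making cells store cholesterol esters in theirs. Cyp11a1 encodes the mitochondrial enzyme that turns cholesterol into pregnenolone, so a mouse without it cannot make its own steroid hormones, glucocorticoids included, and glucocorticoids are known to act on triglyceride storage and release in adipose tissue and liver.

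Spots of the red (knockout) channel had a median raw signal of 304 to 467, and those of the green (wild-type) channel 163 to 224. Of the 15 tested probes of the storage genes, 14 exceeded background clearly in either genotype on each of the 4 arrays. Cyp11a1 itself gave a log2 ratio of -0.16 on its brighter probe (-0.19, -0.40, 0.013 and -0.072 on arrays 1 to 4), and the position of that probe relative to the deletion is unknown, so it does not check the labels. All 10 acinar markers examined were above background in both channels on every array, and Cpa1, an acinar carboxypeptidase, was among them. Of 9 adipocyte markers, 5 were above background in both channels on every array, Adipoq (adiponectin) included, whereas Lep (leptin) and Ucp1 reached that on 2 knockout and 1 wild-type array each. These are whole-tissue extracts, so fewer cells of a type and less RNA per cell cannot be told apart.

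With loess normalisation, the droplet and triglyceride genes of knockout pancreas split: Hsd17b13, Dgat2, Lpl and Cd36 were lower, Pnpla2 and Plin1 were higher, and Plin2, Plin3, Dgat1 and Lipe did not pass the threshold (limma adjusted p under 0.05 over all 15531 genes). That is 4 of 10 lower and 2 of 10 higher, where 5.11% of all tested genes were lower and 9.45% higher. The median of the 10 mean log2 ratios was 0.024, and that of all tested genes 0.013. By brightest tested probe, Hsd17b13 was the lowest of the 10 genes and Pnpla2 the highest on every one of the 4 arrays. The second probe of Pnpla2 averaged 0.023. Of the 10 genes, 4 lay below 0 and 4 above 0 on all 4 arrays. A ratio below 0 on all 4 arrays was found for 14.4% and above 0 for 24.6% of tested genes with 4 values. With median centring of each array in place of loess the median of all genes moved from 0.013 to 0.26. Against 0, 1 of the 10 genes was then lower and 6 were higher, where 2458 of all 15531 tested genes were lower and 9470 higher. Measured from the median over genes, the 10 genes kept the sign they had with loess, 4 below and 6 above.

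The genotypes were not fully apart for any of the 10 genes by brightest probe: in 0 of 10 did all 4 knockout intensities lie below or above all 4 wild-type intensities, as they did for 2.15% (below) and 6.24% (above) of genes. With each of the 15 probes tested separately, 5 were lower (the probe of Hsd17b13, that of Cd36 and 3 of Dgat2) and 1 was higher (Pnpla2), against 4.11% and 6.62% of 32597 probes.

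**Figure D1:**
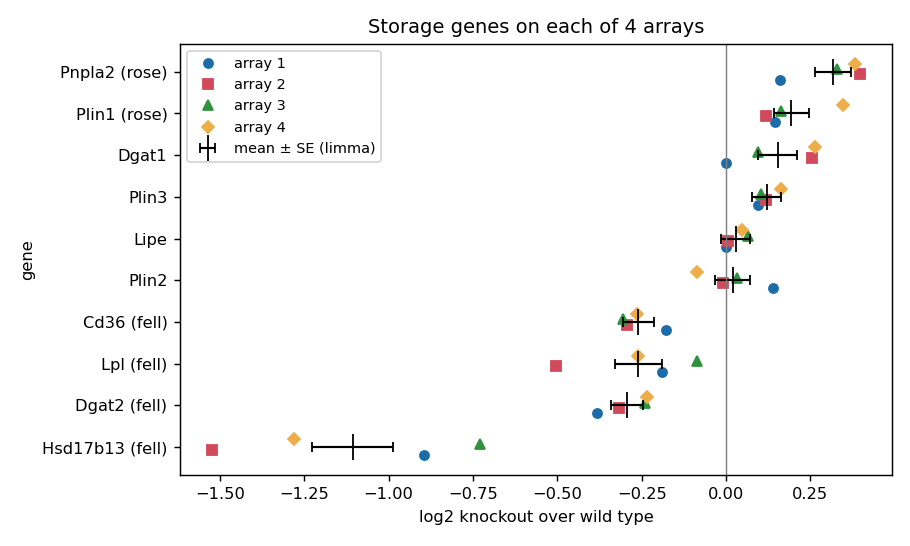
Log2 ratio of knockout over wild type (horizontal axis, loess) of the 10 storage genes (vertical axis) on arrays 1 to 4 (coloured symbols), each by its brightest tested probe, with the limma mean and SE over 4 arrays in black. Hsd17b13 lies between -1.52 and -0.73, apart from the other 9 genes, whose means lie between -0.29 and 0.32, and with median centring Cd36 turns to 0.069 and Dgat2 to -0.0013.

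Hsd17b13, a short-chain dehydrogenase that sits on lipid droplets and is best known from liver, had the largest change. Its only probe (A_52_P595140) gave normalised log2 intensities of 10.86, 11.74, 9.77 and 11.09 in the wild-type extracts of arrays 1 to 4. The knockout extracts of the same arrays gave 9.97, 10.22, 9.05 and 9.80. Each knockout extract was thus below the wild-type extract it shared an array with, but the genotypes overlapped, since the wild-type extract of array 3 lay below the knockout extracts of arrays 1, 2 and 4. The log2 ratios were -0.90, -1.52, -0.73 and -1.28, and the mean was -1.11 ± 0.12 (moderated limma SE, n = 4 arrays, limma adjusted p = 0.00255), or 2.15-fold lower. The SD of the 4 ratios was 0.36, and eBayes with trend and robust gave an SE of 0.25 (limma adjusted p = 0.0190). Only 0.0451% of tested genes had a lower mean ratio. With median centring it stood at -0.75, or -1.0 when measured from the median over genes. Compared as 4 against 4 extracts with no replicate block, the same difference had an SE of 0.39 and did not pass (limma adjusted p = 0.278), because the level differed between arrays with an SD of 0.82 in wild type and 0.50 in knockout.

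The fall was not seen in the neighbours of Hsd17b13 on the chromosome. Its nearest relative Hsd17b11, another droplet-bound dehydrogenase encoded next to it, was at 0.13 ± 0.055 (limma adjusted p = 0.154), with 0.14, 0.25, 0.17 and -0.025 on arrays 1 to 4, and its second probe gave 0.18. Klhl8 on the other side was at -0.062, Aff1 beyond it at 0.013 and Nudt9 beyond Hsd17b11 at 0.15, none past the threshold.

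Hsd17b13 is abundant in liver, and transcripts of hepatocytes differed widely between these extracts. Alb (albumin) gave log2 ratios of 4.13, 2.70, -3.52 and 1.44 and Ahsg (fetuin A) 4.09, 2.69, -2.93 and 1.44 on arrays 1 to 4, so both were higher in knockout on 3 arrays and lower on array 3. Hsd17b13 was lower in knockout on all 4. Among the wild-type extracts, Alb was highest on array 3 (log2 intensity 10.74, against 7.80 to 8.36 on the others), where Hsd17b13 was lowest. Among the knockout extracts both were lowest on array 3, where Alb was at 7.22 and otherwise at 9.24 to 12.49. Of 9 hepatocyte markers on the array, 8 were tested, 0 passed the threshold in limma in either direction (2 had an unadjusted p under 0.05) and the median ratio was 0.37. Of all tested genes, 5.11% were lower and 9.45% higher. With median centring 4 of the 8 were higher and 0 lower, where 9470 of all 15531 tested genes were higher and 2458 lower.

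**Figure D2:**
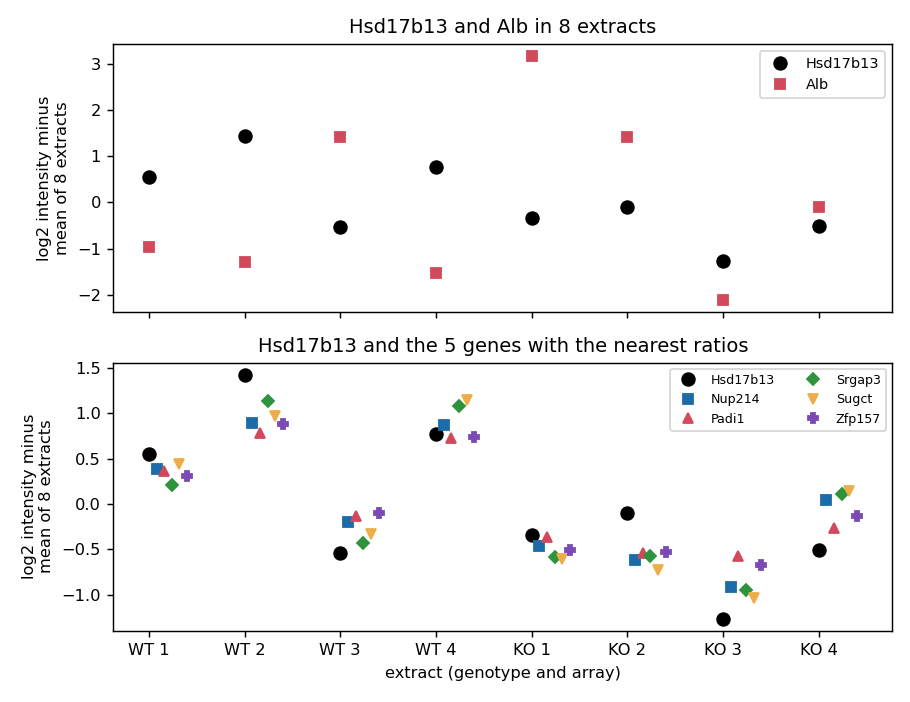
Log2 normalised intensity minus its mean over the 8 extracts (vertical axes) in the wild-type (WT) and knockout (KO) extracts of arrays 1 to 4 (horizontal axis): Hsd17b13 and Alb in the upper panel, Hsd17b13 and the 5 genes with the nearest log2 ratios in the lower panel. Among the wild-type extracts Hsd17b13 is lowest on array 3 and Alb is highest there, and among the knockout extracts both are lowest on array 3. The 5 genes of the lower panel were picked by ratios formed from these same intensities. All 5 are lowest on array 3 within each genotype, as Hsd17b13 is.

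The genes whose 4 log2 ratios lay nearest to those of Hsd17b13, by root mean square difference over the 4 arrays, were Sugct (0.18), Srgap3 (0.21), Nup214 (0.23), Zfp157 (0.23) and Padi1 (0.24). All 5 were lowest on array 3 within each genotype, as Hsd17b13 was. Wild-type Srgap3, for example, was at 10.68, 11.60, 10.04 and 11.56 on arrays 1 to 4. The 5 genes were picked by ratios formed from these same intensities. How many of all genes were lowest on array 3 in both genotypes was not counted. Sugct, Srgap3, Nup214 and Zfp157 each have another tested probe, and these gave mean ratios of 0.043, 0.098, 0.16 and 0.15, none past the threshold with each probe tested separately. Padi1 and Hsd17b13 have 1 probe each, so no second probe can be set beside their ratios. Whether the single probe of Hsd17b13 measures that transcript alone was not tested, and its ratio is that of this probe. The 4 arrays are too few for this likeness to be tested.

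The letters upstream of the start of Hsd17b13 are shown because this gene moved most, beside those of Cd36, which was lower with loess, and of Pnpla2, which was higher. The promoter table of RefSeq (GRCm38.p6) held 7 of the 10 genes in 8 windows, with 2 for Lipe, and Dgat1, Dgat2 and Lpl had no entry. Each line gives the 250 bases before the start, 5′ to 3′ on the gene's strand, with capitals for any exact match, on either strand, to 6 motifs. These were AGGTCA, the core of many nuclear receptor sites, a direct repeat of it with 1 free base between, AGAACA, the core of glucocorticoid receptor sites, the E-box CACGTG, the CCAAT box and the TATA box TATAAA. The direct repeat holds the first motif, and the others share no letters by rule. Hsd17b13 lies on the minus strand (chr5:103977389-103977638), as does Cd36 (chr5:17835897-17836146), and Pnpla2 lies on the plus strand (chr7:141454938-141455187).
Hsd17b13: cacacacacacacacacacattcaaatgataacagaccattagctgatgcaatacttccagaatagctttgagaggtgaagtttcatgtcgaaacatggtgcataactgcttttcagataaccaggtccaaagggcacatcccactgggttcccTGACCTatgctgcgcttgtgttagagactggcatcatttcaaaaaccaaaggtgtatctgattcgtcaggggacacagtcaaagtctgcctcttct
Cd36: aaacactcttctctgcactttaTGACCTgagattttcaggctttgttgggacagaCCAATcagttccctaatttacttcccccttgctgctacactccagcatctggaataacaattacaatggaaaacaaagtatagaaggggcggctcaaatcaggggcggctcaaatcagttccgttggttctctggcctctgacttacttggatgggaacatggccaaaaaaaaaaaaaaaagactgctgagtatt
Pnpla2: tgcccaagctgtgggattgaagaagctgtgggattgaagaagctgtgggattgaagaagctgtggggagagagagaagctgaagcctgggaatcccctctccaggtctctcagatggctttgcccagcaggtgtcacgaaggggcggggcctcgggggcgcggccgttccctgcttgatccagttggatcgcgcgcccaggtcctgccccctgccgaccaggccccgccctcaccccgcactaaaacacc
AGGTCA was found on the opposite strand (as TGACCT) 96 to 91 bases before the start of Hsd17b13 and 228 to 223 bases before that of Cd36. Plin2, which did not pass the threshold, held it too, so that 3 of 7 genes had it, against 14% of 32851 promoters. The CCAAT box was in 3 of 7 (Plin2, Plin3 and Cd36), against 33.8%, and the E-box in 1 (Lipe, in 1 of its 2 windows), against 6.02%. AGAACA, the TATA box and the direct repeat were in no window of the 7 genes (0 of 8 windows), against 16.1%, 12.4% and 0.0335% of all promoters. The window of Pnpla2 held none of the 6 motifs.

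The perilipins, which coat the droplet and gate the access of lipases, did not fall with Hsd17b13. Plin1, the perilipin of adipocytes, gave wild-type intensities of 9.36, 9.13, 9.12 and 10.23 and knockout intensities of 9.50, 9.25, 9.29 and 10.58 on arrays 1 to 4. Both extracts of array 4 stood above the other 6, and within each array knockout was the higher one. The log2 ratios of 0.15, 0.12, 0.16 and 0.35 had a mean of 0.19 ± 0.053 (SE, n = 4 arrays, limma adjusted p = 0.0485). Without any 1 of the 4 replicates Plin1 did not pass (limma adjusted p = 0.0620 to 0.186). The 5 adipocyte markers above background on every array did not stand above the other 6 extracts on array 4. Adipoq was at 9.79 and 9.85 in the knockout and wild-type extracts of array 4 and between 9.18 and 9.90 in the others. Cfd (adipsin) was at 7.64 and 7.68 there and between 7.32 and 7.75 in the others, and Plin4 and Slc7a10 also lay within the range of the others. Fabp4 was lowest on array 4, at 15.06 and 15.14 against 15.27 to 15.56. Of 7 adipocyte markers tested by their brightest probe, 0 passed in limma in either direction (0 had an unadjusted p under 0.05), with a median of -0.033. Of all tested genes, 5.11% were lower and 9.45% higher. The 2 dimmer probes of Fabp4 were lower, at -0.29 and -0.25 (limma adjusted p = 0.0264 and 0.0146 with each probe tested separately). With median centring all 7 markers passed, 5 as lower and 2 as higher, where 2458 of all 15531 tested genes were lower and 9470 higher. Their median was -0.33, or -0.59 measured from the median over genes, where Plin1 stood at 0.49 and 0.23.

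Plin2, the perilipin of droplets in most other cells, did not differ beyond its spread. Wild-type intensities were 11.17, 11.38, 11.25 and 11.02 and knockout intensities 11.31, 11.37, 11.29 and 10.93, and the mean log2 ratio was 0.019 (95% interval -0.10 to 0.14, limma adjusted p = 0.837). Plin3, which moves between cytosol and new droplets, was higher on all 4 arrays by little (0.095, 0.12, 0.10 and 0.16) and did not pass (0.12 ± 0.043, limma adjusted p = 0.105). The remaining family members were near 0, with Plin4 at 0.0022 and Plin5 at -0.036. With median centring Plin2 and Plin3 passed as higher (0.44 and 0.58, or 0.19 and 0.32 measured from the median over genes).

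The enzymes of the last step of triglyceride synthesis went apart. Dgat2, which uses newly made fatty acids, was lower in knockout on each of its 3 probes. The brightest (A_52_P359739) had wild-type intensities of 9.59, 9.66, 9.46 and 9.73 and knockout intensities of 9.21, 9.34, 9.22 and 9.50. Every array had the knockout extract below its wild-type extract, and the genotypes overlapped only through the wild-type extract of array 3 and the knockout extract of array 4. The ratios of -0.38, -0.32, -0.24 and -0.24 averaged -0.29 ± 0.047 (SE, n = 4 arrays, limma adjusted p = 0.00895), or 1.23-fold lower. The other probes averaged -0.34 (A_51_P396003, between -0.53 and -0.012) and -0.31 (A_52_P592909, between -0.46 and -0.13). With each probe tested separately, all 3 were lower (limma adjusted p = 0.00993, 0.0403 and 0.0264). On A_52_P592909 every knockout intensity was below every wild-type intensity, as on 2.14% of probes. With median centring the brightest probe was at -0.0013 and did not pass, or at -0.26 measured from the median over genes.

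Dgat1, which works mainly on fatty acids taken up or recycled and belongs to another protein family than Dgat2, was not lower on either of its 2 probes. The brighter probe (A_52_P456134) gave ratios of -0.00035, 0.25, 0.096 and 0.26, with a mean of 0.15 ± 0.058 (limma adjusted p = 0.121). With median centring it passed as higher, at 0.29, or at 0.040 measured from the median over genes. The other (A_51_P510059) gave 0.081, 0.15, 0.12 and 0.31, with a mean of 0.16 (limma adjusted p = 0.0936 with each probe tested separately), and its knockout intensities (8.42 to 8.52) all lay above its wild-type intensities (8.21 to 8.34), as on 5.06% of probes. Within each array the ratio of Dgat2 was below that of Dgat1, by -0.38, -0.57, -0.33 and -0.50 on arrays 1 to 4. Both enzymes that make the diglyceride from monoglyceride, Mogat1 (0.074) and Mogat2 (0.020), did not pass.

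**Figure D3:**
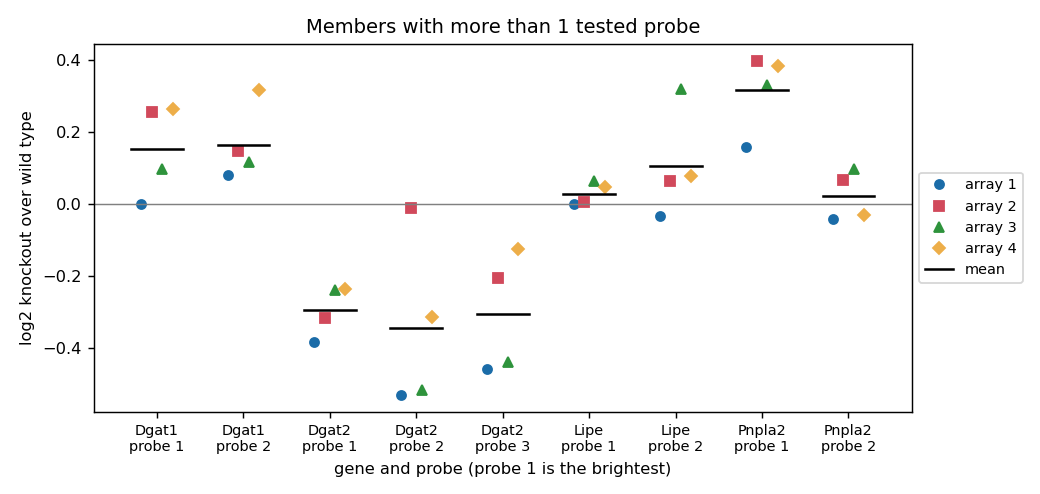
Log2 ratio of knockout over wild type (vertical axis, loess) for each tested probe of Dgat1, Dgat2, Lipe and Pnpla2 (horizontal axis, probe 1 the brightest), with arrays 1 to 4 as coloured symbols and their mean as a line. The 3 probes of Dgat2 average -0.29, -0.34 and -0.31, the probes of Dgat1 0.15 and 0.16, and the probes of Pnpla2 differ, at 0.32 and 0.023.

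Pnpla2, the lipase that takes the first fatty acid off triglyceride (also called Atgl), was higher in knockout on its brightest probe. That probe (A_52_P681771) gave wild-type intensities of 10.63, 10.30, 10.64 and 10.13 and knockout intensities of 10.78, 10.69, 10.97 and 10.51. Knockout was above wild type on all 4 arrays, although the range of the genotypes overlapped. The ratios of 0.16, 0.40, 0.33 and 0.38 averaged 0.32 ± 0.054 (SE, n = 4 arrays, limma adjusted p = 0.0110), or 1.25-fold higher. The second probe (A_51_P197213) did not show it, at -0.041, 0.067, 0.096 and -0.031 (mean 0.023, limma adjusted p = 0.803 with each probe tested separately). On array 3 both extracts were far dimmer on this probe (6.57 in knockout, not well above background, and 6.48 in wild type) than on the other arrays (8.79 to 9.45), whereas the brightest probe was not dimmer there. The mean of both probes was 0.17 (limma adjusted p = 0.0491). With median centring the brightest probe stood at 0.70, or at 0.45 measured from the median over genes.

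Lipe, hormone-sensitive lipase, which takes the second fatty acid, did not pass on either probe. The brightest probe (A_51_P435363) gave 0.00047, 0.0041, 0.064 and 0.047 (mean 0.029, 95% interval -0.071 to 0.13, limma adjusted p = 0.695), and the other probe averaged 0.11. With median centring the brightest probe passed as higher, at 0.36, or at 0.11 measured from the median over genes. Its intensities on array 4 were 9.37 in knockout and 9.33 in wild type, below the 10.10 to 10.26 of the other arrays, whereas on the other probe array 4 lay within the range of the rest. The partners of Pnpla2 did not pass: its coactivator Abhd5 was at -0.060 ± 0.049 and its inhibitor G0s2 at -0.097 ± 0.050, with G0s2 below 0 on all 4 arrays.

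Both genes that bring fatty acids into cells were lower in knockout with loess. Lpl, the lipase that frees fatty acids from lipoproteins in capillaries, had wild-type intensities of 8.63, 9.09, 8.68 and 8.90 and knockout intensities of 8.44, 8.58, 8.60 and 8.64 on its tested probe (A_52_P257812). The ratios of -0.19, -0.51, -0.086 and -0.26 were uneven and averaged -0.26 ± 0.070 (SE, n = 4 arrays, limma adjusted p = 0.0459). With median centring Lpl was at -0.085 and did not pass (limma adjusted p = 0.294), or at -0.34 measured from the median over genes. Nor did it pass with loess without replicate 1, 2 or 4 (limma adjusted p = 0.0970, 0.0852 and 0.123). Its other probe (A_51_P259296) was marked as non-uniform by the scanner software on 3 of 4 arrays and left out. That probe was far brighter, at 12.88 in knockout and 12.98 in wild type on array 4, against 8.64 and 8.90 on the tested probe. With those spots kept, a choice made after the data were seen, it gave -0.050, -0.28, -0.17 and -0.088, with a mean of -0.15 ± 0.10 (SD, n = 4 arrays). The alternative fit with non-uniform spots kept still took the dimmer probe for Lpl, at -0.26 (limma adjusted p = 0.0462).

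Cd36, a fatty acid transporter and scavenger receptor, was at 9.89, 10.26, 9.88 and 9.85 in wild type and at 9.71, 9.96, 9.57 and 9.59 in knockout on its only probe. All 4 arrays had knockout below wild type by similar amounts (-0.18, -0.29, -0.31 and -0.26), and the genotypes overlapped only through the knockout extract of array 2. The mean was -0.26 ± 0.046 (SE, n = 4 arrays, limma adjusted p = 0.0121), but with median centring it was at 0.069, or at -0.19 measured from the median over genes. Without replicate 3 or 4 the limma adjusted p was 0.0535 and 0.0527.

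Cd36 is also made by endothelial cells, macrophages and adipocytes, and Lpl by macrophages and adipocytes. With loess, markers of endothelial cells and macrophages had mean ratios below 0. Of all 15531 tested genes, 7044 were below 0 and 5.11% passed as lower. Of 7 endothelial markers, all were below 0 (median -0.11) and 1 fell, the angiopoietin receptor gene Tek at -0.29 ± 0.065 (limma adjusted p = 0.0260). Their mean ratio on arrays 1 to 4 was -0.13, -0.074, -0.23 and -0.13, and their mean log2 intensity was 10.17 to 10.32 in knockout and 10.30 to 10.55 in wild type. The means of all 5 macrophage markers were below 0 (median -0.078) and 1 fell, the scavenger receptor gene Cd163 at -0.46 ± 0.073 (limma adjusted p = 0.00812). Cd163 was dim, at 6.63 to 7.27 in knockout and 7.11 to 7.46 in wild type. Mrc1 was at -0.23 and Csf1r at -0.078. Adgre1 (-0.021) and Lyz2 (-0.027) were near 0, and both were above 0 on arrays 1 and 3. The mean ratio of the 5 macrophage markers on arrays 1 to 4 was -0.11, -0.45, -0.032 and -0.060. Their mean intensity was 8.61 to 8.74 in knockout and 8.72 to 9.17 in wild type. With median centring, where 9470 of all 15531 tested genes were higher and 2458 lower, these lists were not one-sided. Of the endothelial markers 4 were then higher and 1 lower (median 0.21), and 4 of 7 lay below the median over genes. Of the macrophage markers 1 was then higher and 2 were lower (median -0.0085), and 3 of 5 lay below that median. The part of these cells in the values of Cd36 and Lpl was not tested. Gpihbp1, which anchors Lpl in capillaries and is also 1 of the 7 endothelial markers, was at -0.10 ± 0.055, and the Lpl inhibitor Angptl4 at -0.16 ± 0.069, neither past the threshold. Fabp4, the fatty acid binding protein of adipocytes and capillary endothelium, was at -0.083 ± 0.046 on its brightest probe and did not pass, whereas its other probes gave -0.29 and -0.25 and passed with each probe tested separately (limma adjusted p = 0.0264 and 0.0146).

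**Figure D4:**
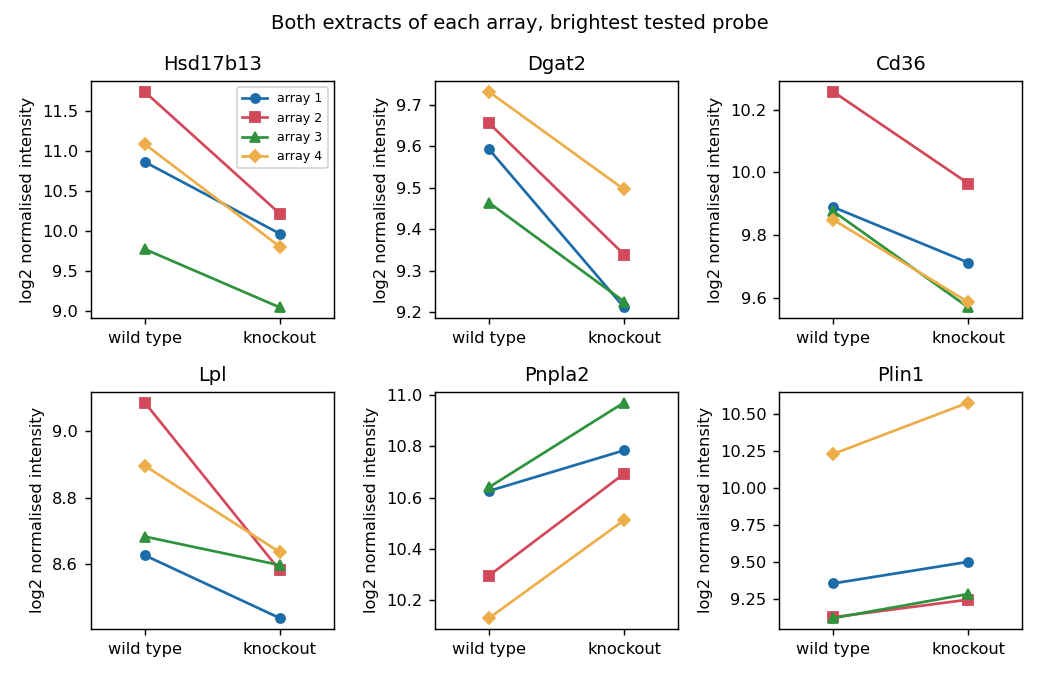
Log2 normalised intensity (vertical axes, each to its own range) of the 6 storage genes that passed the threshold with loess, in the wild-type and knockout extract of each array joined by a line, for arrays 1 to 4. The lines of Hsd17b13, Dgat2, Cd36 and Lpl slope down and those of Pnpla2 and Plin1 up on all 4 arrays, and the level of Hsd17b13 in wild type ranges from 9.77 to 11.74.

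Around these 10 genes, most of the pathway did not pass the threshold. Of 82 other genes of triglyceride synthesis, droplet coat and assembly, lipolysis, fatty acid delivery and their transcription factors, 77 were tested, 2 were lower and 6 higher, where 5.11% of all tested genes were lower and 9.45% higher. Their median ratio was 0.012. With median centring 8 were lower and 50 higher, where 2458 of all 15531 tested genes were lower and 9470 higher.

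Of 21 other genes of triglyceride synthesis, 1 was higher and 1 lower. Both encode mitochondrial acyltransferases of the first step: Gpam at 0.30 ± 0.080 (0.33, 0.51, 0.37 and -0.0056 on arrays 1 to 4, limma adjusted p = 0.0450) and Gpat2 at -0.26 ± 0.063 (limma adjusted p = 0.0333). Gpam did not pass without replicate 1, 2 or 3, nor Gpat2 without replicate 2, 3 or 4. With median centring neither passed (-0.023 and -0.045), and both lay below the median over genes (0.26). Gpam thus changed side, since with loess it lay above the median over genes (0.013). Of the 15 tested genes of droplet coat and assembly 0 passed in limma (2 had an unadjusted p under 0.05), with ratios from -0.12 to 0.13. Of 9 other lipolysis genes, Ces1d, a carboxylesterase, was higher at 0.22 ± 0.052 and Prkaca, the catalytic subunit of protein kinase A, at 0.20 ± 0.050 (limma adjusted p = 0.0321 and 0.0360). Ces1d did not pass without replicate 1, 2 or 3, nor Prkaca without any 1 of the 4.

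Of 17 tested genes of fatty acid delivery, Vldlr, the receptor for triglyceride-rich lipoproteins, fell by 0.56 ± 0.060 on the log2 scale (limma adjusted p = 0.00239). Its log2 ratios were -0.71, -0.39, -0.59 and -0.54 on arrays 1 to 4. Got2, the mitochondrial aspartate aminotransferase also described as a fatty acid binding protein of the plasma membrane, rose by 0.30 ± 0.044, and Dbi, the acyl-CoA binding protein, by 0.25 ± 0.045 (limma adjusted p = 0.00644 and 0.0129). Dbi did not pass without replicate 4. Of 15 transcription factors, Srebf1, which drives genes of fatty acid synthesis, rose by 0.39 ± 0.050 (0.32, 0.43, 0.33 and 0.49 on arrays 1 to 4, limma adjusted p = 0.00417). Pparg, the main regulator of adipocyte droplet genes, was at -0.040 and did not pass. With median centring Vldlr stood at -0.17 and Srebf1 at 0.79, both past the threshold.

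**Figure D5:**
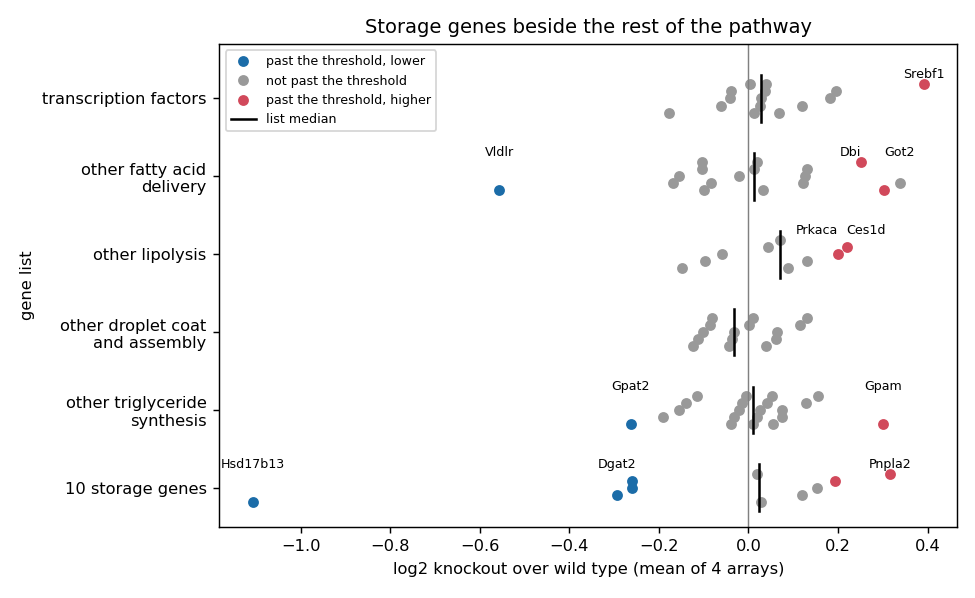
Mean log2 ratio of knockout over wild type over 4 arrays (horizontal axis, loess) for the 10 storage genes and 5 lists of other pathway genes (vertical axis), with each tested gene as a dot coloured by its limma call and the list median as a line. Hsd17b13 at -1.11 and Vldlr at -0.56 lie lowest, Srebf1 at 0.39 and Pnpla2 at 0.32 are among the highest, and the medians of the lists lie between -0.033 and 0.071.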

How the data were processed

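The submitters' processing notes name Agilent Feature Extraction 10.5.1.1 as the authors' software. All arrays shared 1 slide and scan. The deposited files, per the file headers, hold median red and green signals and local backgrounds as linear intensity, processed signals as intensity, and a log10 ratio of red over green. Median signals were corrected with normexp (offset 50) and normalised by loess within each array (limma 3.58.1, R 4.3.3). Controls had weight 0, as had the 597 to 979 spots of an array that carried a non-uniformity mark and were then left out. No spot was saturated. Of 41174 probes, 25097 (61.0%) were named by RefSeq accession through a table of GRCm38.p6. The array files name another build (mm9), so that table gave no gene coordinates here, only the order of the neighbours of Hsd17b13. The promoter windows printed carry coordinates of GRCm38.p6. A probe was tested if well above background in 1 channel on at least 3 arrays with at least 3 values. A gene is represented by its brightest tested probe.

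Log2 ratios were fitted with lmFit and eBayes against 0, two-sided, adjusted by Benjamini-Hochberg over all 15531 genes. Each SE given is the moderated one of limma, in which eBayes draws a gene's variance towards that of the other genes. Single-channel intensities are values after loess and Aquantile scaling. The number of arrays limits the precision. With every probe tested on its own, p-values were adjusted over 32597 probes. The fit was tested on simulated data: of 100 genes changed by 1 on the log2 scale 97 were found, and of 100 changed by 0.5, 73. Changes smaller than 0.5, as most of those named here are, were not simulated. The simulated noise was normal and held no dye or intensity bias. The members and lists were chosen with earlier results of these data known. Named are all 10 genes, other pathway genes past the threshold or closest to a member, up to 4 markers a list past the threshold, and the 5 genes nearest to Hsd17b13. Markers named beyond this (Alb, Ahsg, Adipoq, Cfd, Slc7a10, Lep, Ucp1, Csf1r, Mrc1, Adgre1, Lyz2, Col1a1, Col3a1) were chosen after their values were seen. So were the neighbours Klhl8, Aff1 and Nudt9. Marker lists not used beside a result were acinar (4 of 10 higher, with Cel, Cpa1 and Rbpjl among them and 1 not reported here; 1 lower: Pnlip), islet (0 of 6 higher, 1 lower: Chga) and mesenchymal (1 of 7 higher: Pdgfrb; 0 lower). With median centring 9, 5 and 6 of these were higher and 0 lower, where 9470 of all 15531 tested genes were higher. These counts are by brightest tested probe. A dimmer probe each of Col3a1 and Col1a1 was lower, at -0.42 and -0.46 (limma adjusted p = 0.00798 and 0.0177 with each probe tested separately). Their brightest probes gave 0.20 and -0.11 and did not pass. Alternatives were other background corrections, median centring, other filters and probe summaries, eBayes with trend and robust, single channels, each replicate left out and, added after seeing the data, non-uniform spots kept.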

Additional observations from a re-analysis of the deposited data

Results flagged for a closer look

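Of 45 sets of 4 values examined (ratios and intensities of each genotype, for each tested probe of the 10 genes), 4 were flagged by Dixon's test at the 95% level. In these the highest or lowest array stood far from the other 3. Chance gives about 1 in 20 for independent sets. These sets are not independent, since a ratio is formed from both intensities of its array, so 4 of 45 measures no excess. Lipe on its brightest probe was low on array 4 in both genotypes, at 9.37 in knockout and 9.33 in wild type on the log2 scale, against at least 10.10 elsewhere, and its ratio there was 0.047. The wild-type intensity of Dgat1 on its dimmer probe was 8.21 on array 4, against 8.33 to 8.34. The wild-type intensity of Cd36 was 10.26 on array 2, against 9.85 to 9.89.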

How the results depend on the processing

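Hsd17b13 and Pnpla2 passed the threshold in 14 of 15 alternatives, Dgat2 in 13, Cd36 in 11, Lpl in 6 and Plin1 in 5. With single channels and no replicate block 0 of the 10 genes and 0 of the 77 other pathway genes were lower or higher in limma, where 1855 of 15531 genes had an unadjusted p under 0.05 and 106 passed. With the block built into the ratio, 2262 passed. Median centring gave 1 lower and 6 higher among the 10 genes, 8 lower and 50 higher among the others, and 9470 higher and 2458 lower among all genes. It turned Cd36 to 0.069 (limma adjusted p = 0.251). The cause was not tested. With processed signals and with the deposited log ratio 1 of the 10 genes was higher, and of the others 1 was lower and 3 were higher. Of all 15531 genes, 1149 were higher and 630 lower with processed signals, and 1266 and 611 with the deposited log ratio. Without background correction, without a filter on dim probes, and with every probe on its own, 1 of the 10 genes was higher. Among all genes, 1465 of 15531, 1437 of 17229 and 1288 of 15531 were higher under these settings. Without 1 replicate, 2 to 3 of the 10 genes were lower and 1 to 1 higher, and of the others 1 to 2 were lower and 3 to 4 higher, with fewer arrays fitted. Over all genes, 967 to 1634 of 15531 passed then, 346 to 637 as lower and 612 to 997 as higher.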
